A study of Mus musculus with 54 samples.

Results

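Mouse embryonic stem cells carrying EZH2 K634E were compared with cells carrying wild-type EZH2 (WT) after retinoic acid, by RNA sequencing of all genes. The comparison used 6 of the 48 libraries whose columns matched a label, 3 of K634E and 3 of WT, and it tested 17030 of the 55401 genes in the count table. Both lines were Ezh2fl/∆ heterozygotes, with 1 deleted Ezh2 allele, that also expressed an added EZH2, which was the K634E variant in one line and the wild-type protein in the other. K634E replaces a lysine of EZH2 with glutamic acid and is 1 of the Weaver syndrome variants of the series. The other lines set beside them were A677T, R679C and K563E, 3 further Weaver syndrome variants in the same background, A733T, the heterozygote with no added EZH2 (het) and the parental line. All were brought through a brief differentiation (ATRA), in which 2i and LIF were withdrawn and all-trans retinoic acid was given, and the same lines were also sequenced undifferentiated (mESC). The labels give neither the dose nor the length of the treatment, nor the promoter and integration of the added EZH2, nor whether a line is a single clone. They also do not say that the 3 libraries of a line came from separate cultures. The p-values measure the spread between libraries of a line, which may be technical, and this spread was estimated over all 24 ATRA libraries analysed. With only the K634E and WT libraries the test called 666 genes, against 2558 with the shared estimate.

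EZH2 is an enzyme of the Polycomb complex PRC2 that trimethylates lysine 27 of histone H3 (H3K27me3), a mark of silenced developmental genes. In mammals the complex gathers at CpG-rich promoters. Retinoic acid drives stem cells out of naive pluripotency, switches on anterior Hox genes early and posterior ones later, and in culture gives mixtures of neural and endodermal cells. Weaver syndrome is an overgrowth disorder with tall stature and advanced bone age.

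Promoter sequences of 4 genes on which the results turn are shown for their contrasting CpG content. Foxa2 and Tfcp2l1 were lower in K634E and Id4 and Zeb2 were higher, each with and without the third K634E library and with and without a correction for GC content. Each line gives the 250 bases before the RefSeq start in GRCm38.p6, 5′ to 3′ on the gene's strand, with CpG dinucleotides in capitals.
Foxa2: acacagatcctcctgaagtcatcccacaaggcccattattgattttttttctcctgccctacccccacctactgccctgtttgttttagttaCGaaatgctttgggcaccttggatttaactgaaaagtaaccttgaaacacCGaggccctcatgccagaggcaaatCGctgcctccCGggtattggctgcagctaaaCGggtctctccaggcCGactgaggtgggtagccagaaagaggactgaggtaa
Tfcp2l1: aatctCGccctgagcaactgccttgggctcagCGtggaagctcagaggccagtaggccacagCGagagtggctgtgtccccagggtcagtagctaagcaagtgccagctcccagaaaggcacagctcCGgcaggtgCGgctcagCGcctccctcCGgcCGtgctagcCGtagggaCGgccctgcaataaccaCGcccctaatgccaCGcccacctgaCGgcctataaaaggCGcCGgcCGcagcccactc
Id4: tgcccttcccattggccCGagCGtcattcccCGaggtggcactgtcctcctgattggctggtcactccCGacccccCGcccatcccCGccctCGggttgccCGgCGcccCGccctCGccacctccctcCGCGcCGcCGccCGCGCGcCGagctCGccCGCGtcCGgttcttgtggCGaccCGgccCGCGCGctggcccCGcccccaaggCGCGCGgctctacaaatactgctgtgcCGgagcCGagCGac
Zeb2: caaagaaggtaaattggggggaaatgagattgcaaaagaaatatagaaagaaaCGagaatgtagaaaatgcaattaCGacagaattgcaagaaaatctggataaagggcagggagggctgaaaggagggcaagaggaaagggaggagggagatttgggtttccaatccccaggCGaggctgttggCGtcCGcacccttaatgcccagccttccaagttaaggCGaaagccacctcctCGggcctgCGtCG
The Foxa2 window lies at chr2:148046970-148047219 on the minus strand and held 6 CpG. The window of Tfcp2l1, at chr1:118627695-118627944 on the plus strand, held 16. Id4, at chr13:48260866-48261115 on the plus strand, held 35, and Zeb2, at chr2:45117443-45117692 on the minus strand, held 9. For Foxa2 the outermost of 3 RefSeq starts was used and for Zeb2 the outermost of 4. No exon of the GENCODE annotation overlapped these windows. Over the 11681 tested genes with such a window, the first RefSeq entry of each was taken instead, and the median was 15 CpG. It was 17 over the 355 of 482 genes that were higher in all 4 of these settings and 12 over the 405 of 540 genes that were lower in all 4. AGATAA, the GATA factor core, was found on either strand in 3.38% of the windows of higher genes, 3.7% of those of lower genes and 5.67% of all. AGGTCA, a retinoid receptor half-site, stood in 8.17%, 11.9% and 10.9% of the same windows, and CTTTGA, the TCF and LEF core, in 9.3%, 10.1% and 10.7%. On opposite strands the half-site and the TCF and LEF core can share bases. None of the printed windows holds any of the 3 motifs.

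The K634E libraries held 15787148, 20187386 and 16507956 counts and the WT libraries 17880461, 24677036 and 21675530 counts. Replicate 3 of K634E stood apart. Across genes, its deviation from the mean of the libraries followed GC content at a Spearman correlation of -0.77, against -0.36 and -0.22 in the other K634E libraries and -0.28 to 0.56 in WT. Replicate 3 also had the lowest such correlation of its line in WT (-0.28), R679C (-0.22), K563E (-0.61), A677T (-0.50) and A733T (0.02). In het and the parental line it did not. The mitochondrial share of K634E replicate 3 was 2.77%, against 1.80% to 1.98% in the other K634E libraries and 1.49% to 1.96% in WT. In a chi-square test of counts over genes, it differed from the other K634E libraries at 17.7 and 23.7 per degree of freedom, while those differed from each other at 2.69 and the WT libraries from each other at 5.01 to 10.5. Most counts are therefore given with and without it. A named call that was lost without it is given as such. No pair of these libraries agreed within sampling noise.

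Between K634E and WT, 2558 of 17030 genes changed (15.0%; edgeR quasi-likelihood test, adjusted p under 0.05), 1256 higher in K634E (7.38%) and 1302 lower (7.65%). Without K634E replicate 3, 1180 of 17437 genes changed (6.77%), 569 higher (3.26%) and 611 lower (3.50%). The lists shared 1113 genes, 43.5% of the longer and 94.3% of the shorter, and all 1113 had the same sign in both. At least 2-fold differences were more often decreases: 93 genes were 2-fold higher and 180 were 2-fold lower, or 57 and 127 without replicate 3. Across 10854 genes the log2 fold change followed GC content at a Spearman correlation of -0.62, at -0.36 without replicate 3 and at -0.01 after the GC correction, all of which share these libraries. The median gene GC content was 45.2% among the higher genes, 55.2% among the lower genes and 50.3% among all tested genes. With the GC correction 2401 genes were called (14.1%), 1156 higher (6.79%) and 1245 lower (7.31%), and with it and without replicate 3 the count was 1683 (9.65%), 798 higher (4.58%) and 885 lower (5.08%). The part of GC content in any single fold change was not tested. Counts of gene list members below stand against 7.38% of all genes higher and 7.65% lower, or 3.26% and 3.50% without replicate 3. Against het these shares were 18.0% and 19.2%. No test of whole lists was run.

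Genes called in all 4 settings, with and without replicate 3 and with and without the GC correction, numbered 482 higher and 540 lower. Their median log2 fold changes were 0.47 and -0.65. These genes were chosen by their calls against WT, so their separation from WT (468 and 540 genes) was largely set in advance. The K634E libraries lay above every WT and every het library for 387 of the 482, and below every one of them for 474 of the 540. Against het, 383 of the 482 were called higher and 460 of the 540 lower, where 18.0% and 19.2% of all genes were. Both comparisons share the K634E libraries. The median GC contents of the 482 and the 540 genes were 47.6% and 54.1%.

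**Figure D1:**
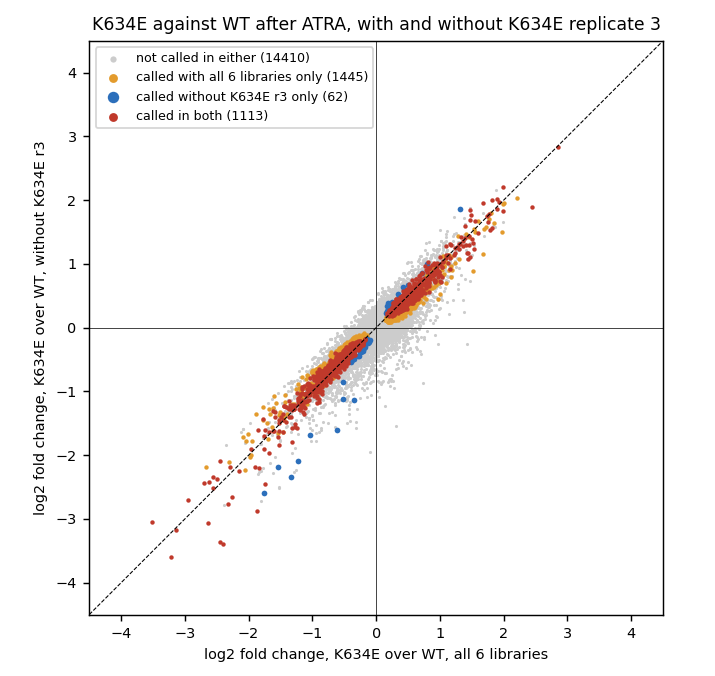
Log2 fold change of each gene, K634E over WT after ATRA, with all 6 libraries (x axis) and without K634E replicate 3 (y axis). Of the genes drawn by call, 1113 were called in both, 1445 only with all libraries and 62 only without replicate 3, the dashed line marks equality, and 3 genes lie outside the axes.

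Ezh2 itself had 415, 417 and 472 counts per 1000000 (CPM, scaled by TMM, the trimmed mean of M-values) in the K634E libraries, against 367, 369 and 379 CPM in the WT libraries. The groups did not overlap, with K634E replicate 3 the highest, and both stood above the het line at 245 ± 5.40 CPM (SD, n = 3). The log2 fold change over WT was 0.22 (SE 0.06, edgeR adjusted p = 0.00801), but the call was lost without K634E replicate 3 (0.17, adjusted p = 0.0685) and with the GC correction (adjusted p = 0.227). Whether reads of the added transcript count under Ezh2 is not stated. The difference from het was 0.83 (adjusted p = 1.35e-11). Suz12, the scaffold subunit, had 263, 252 and 378 CPM in K634E and 319, 278 and 348 CPM in WT, so the groups overlapped and replicate 3 lay far above its fellows. Its log2 fold change was -0.08 (adjusted p = 0.73), and -0.29 (adjusted p = 0.208) without that library. Eed, which binds the methylated tail, stood at -0.08 (adjusted p = 0.4), and Ezh1, the other catalytic subunit, at -0.08 (adjusted p = 0.587). Of 12 PRC2 subunit genes tested only Ezh2 changed, and with the GC correction none was higher and 4 were lower. Of 23 PRC1 subunit genes 3 were higher and 1 lower, and 3 and 0 without replicate 3. Bcor, of the PCGF1 complex, rose by 0.33 (adjusted p = 0.0042) in both settings.

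Endoderm genes were lower in K634E. Of 23 tested, 11 fell and none rose (7.65% of all genes fell), and the count was 11 and 0 without replicate 3 as well. At an unadjusted p under 0.05, 2 were higher, DESeq2 called none higher and 10 lower, and the GC correction gave 1 higher and 10 lower. The median log2 fold change of the list was -0.34, against 0.00 over all genes. Leaving out single libraries kept 8 to 11 lower calls.

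Gata6, a transcription factor that starts the primitive endoderm programme, is at chr18:11052064-11085635. It had 36.4, 33.3 and 39.5 CPM in the K634E libraries, against 79.2, 79.2 and 84.0 CPM in the WT libraries. The K634E libraries were far below the WT libraries, with het between them at 53.5 ± 2.58 CPM. K634E stood at a log2 fold change of -1.15 (SE 0.08, adjusted p = 7.04e-11), and -1.21 without replicate 3. Gata4, its partner factor, had 10.8, 10.3 and 7.82 CPM in K634E, against 24.3, 27.9 and 23.2 CPM in WT. The groups lay far apart, at -1.38 (SE 0.12, adjusted p = 7.25e-09). Sox17, an endoderm regulator acting after the GATA factors, had 9.36, 10.8 and 8.26 CPM in K634E, against 24.6, 23.0 and 23.4 CPM in WT. It was lower in each K634E library than in any WT library, at -1.32 (SE 0.12, adjusted p = 2.97e-08).

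Foxa2, a pioneer factor of definitive and visceral endoderm, is at chr2:148042877-148046969 on the minus strand, and its window with 6 CpG is printed above. It was rare, at 1.47, 0.897 and 0.438 CPM in K634E, against 2.69, 3.25 and 2.63 CPM in WT, with replicate 3 the lowest. The log2 fold change was -1.62 (SE 0.28, adjusted p = 0.000199), and -1.30 (adjusted p = 0.00239) without that library. Pdgfra, a receptor of primitive endoderm that mesoderm also carries, had 11.5, 13.7 and 11.6 CPM in K634E, against 27.4, 25.8 and 24.8 CPM in WT. The groups did not overlap, at -1.08 (SE 0.11, adjusted p = 6.28e-08). Further lower members, chosen here because they were called, were Rhox5 (-1.24), Cubn, the endocytic receptor of visceral endoderm (-1.19), Apoe (-0.65), Sox7 (-0.39) and Foxa1 (-0.34). Apoe was carried in part by replicate 3, with 176, 166 and 88.0 CPM in K634E, against 228, 237 and 209 CPM in WT. It stood at -0.39 (adjusted p = 0.0328) without it. Apoe was not called without WT replicate 1 or 2, Sox7 without WT replicate 1 or 3 or K634E replicate 1 or 2, and Foxa1 without WT or K634E replicate 1 or 2. The highest adjusted p with 1 library left out was 0.0840 for Apoe, 0.130 for Sox7 and 0.177 for Foxa1, and Foxa1 was not called with the GC correction (0.375). The summed level of the 23 genes was 332 to 415 CPM in K634E and 547 to 586 CPM in WT. In bulk RNA, fewer cells of a type and less RNA per cell cannot be told apart.

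Against het the same list was split, with 7 members higher and 7 lower, where 18.0% of all 17030 genes were higher and 19.2% lower. Gata6 stood at -0.56, Gata4 at -0.68 and Sox17 at -0.35 against het, each passing the test, though Sox17 did not without K634E replicate 3 (adjusted p = 0.16). These values share the K634E libraries with the WT comparison. Across the Weaver syndrome lines, Gata6 averaged 36.4 ± 3.10 CPM in K634E, 47.9 ± 1.18 CPM in A677T, 34.2 ± 1.74 CPM in R679C and 40.4 ± 2.61 CPM in K563E. The ranges of 1 SD of K634E overlapped those of R679C and K563E and lay below that of A677T. A733T stood at 60.9 ± 2.86 CPM and the parental line at 59.4 ± 5.44 CPM (SD, n = 3 each).

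Genes of the basement membrane, the laminin and collagen IV sheet that endoderm lays down in large amounts, were lower in K634E. Of 20 tested, 12 fell and 2 rose (7.65% and 7.38% of all genes), and 9 and 2 without replicate 3. The median log2 fold change was -0.35. Lama1, the laminin alpha chain of the embryonic basement membrane, is at chr17:67697259-67822647. It had 42.7, 42.0 and 39.6 CPM in K634E, against 108, 102 and 88.8 CPM in WT. The 3 K634E values were nearly equal and far under the WT values, and het was between at 68.6 ± 1.09 CPM. The log2 fold change was -1.27 (SE 0.09, adjusted p = 3.79e-10). Col4a1 had 79.0, 73.3 and 57.5 CPM in K634E, against 144, 129 and 116 CPM in WT, and Col4a2 had 27, 30.7 and 17.5 CPM in K634E, against 61.2, 58.9 and 49.7 CPM in WT. Both collagen IV chains were lowest in replicate 3, and neither overlapped WT. Col4a1 fell by 0.89 on the log2 scale (SE 0.12, adjusted p = 1.1e-05) and Col4a2 by 1.17 (SE 0.17, adjusted p = 0.000103). Without replicate 3 the values were -0.76 and -0.97. Sparc, a collagen-binding matrix protein of parietal endoderm, had 80.0, 83.4 and 73.2 CPM in K634E, against 109, 107 and 105 CPM in WT. It was lower in every K634E library, at -0.44 (SE 0.06, adjusted p = 7.2e-06).

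Serpinh1, the collagen chaperone, stood at -0.63, and Lamc1, Lamb1 and Nid1 at -0.32, -0.30 and -0.42, all also called without replicate 3. Hspg2, Lamb2 and Nid2 were called only with it (adjusted p = 0.111, 0.152 and 0.0940 without), and Hspg2 was not called with the GC correction either (adjusted p = 0.128). The higher members were the collagen-modifying enzymes P4ha1 (0.28) and Plod2 (0.30). Neither was called with the GC correction (adjusted p = 0.148 and 0.180), P4ha1 was not called without WT replicate 3 (0.0564), and Plod2 was not called without K634E replicate 3 (0.0646). The summed level of the list was 2568.5 to 3281 CPM in K634E and 3277 to 3818 CPM in WT, so the sums of single libraries overlapped slightly. Of 19 other collagen and matrix genes, Vcan, a proteoglycan, rose by 0.69 and Fn1, fibronectin, fell by 0.36, and the rest did not pass the test. Without replicate 3, 2 of them were higher and 1 lower. None of 9 fibroblast genes passed the edgeR test in either direction, with 2 higher and 2 lower at an unadjusted p under 0.05 and none called by DESeq2, while 1 was called higher without replicate 3. Their summed level was 45.1 to 57.6 CPM in K634E and 43.5 to 56.3 CPM in WT.

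**Figure D2:**
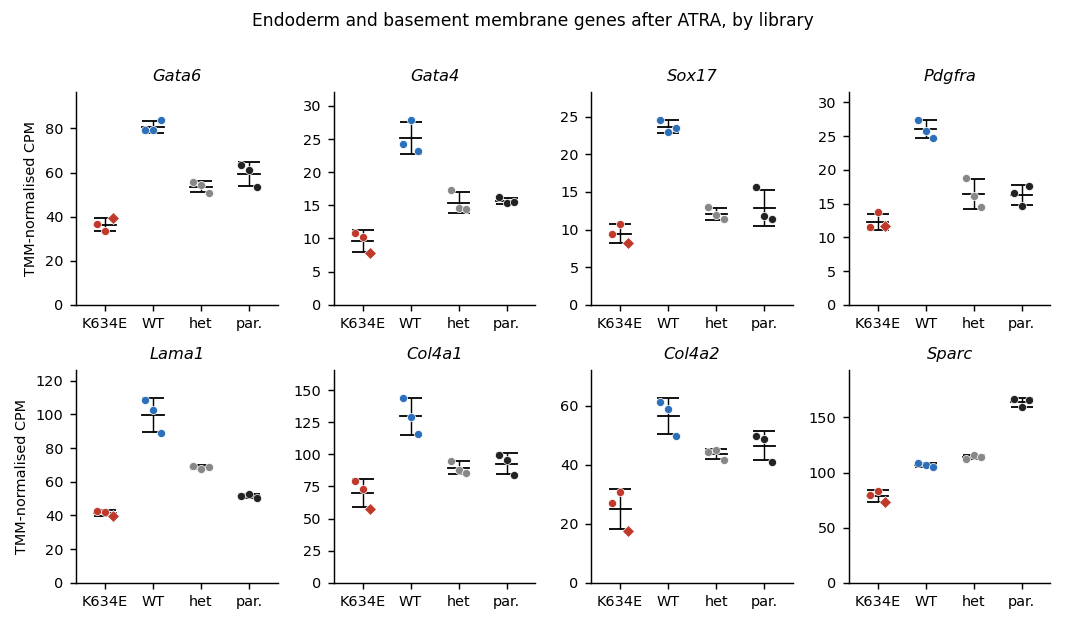
Level in CPM of 4 endoderm genes (Gata6, Gata4, Sox17, Pdgfra) and 4 basement membrane genes (Lama1, Col4a1, Col4a2, Sparc) after ATRA in K634E, WT, het and parental cells. Points are libraries, the diamond is K634E replicate 3, and bars are the mean ± SD (n = 3), and in each panel the K634E libraries lie below all WT libraries.

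Among Hox genes, the lower members in K634E were central and posterior ones of the HoxA and HoxB clusters, and the higher ones were Hoxb1 and Hoxb5. Of 31 tested, 7 fell and 2 rose (7.65% and 7.38% of all genes). Without replicate 3 it was 5 and 2 (3.50% and 3.26% of all genes). The median was -0.28. Hoxa7, at chr6:52214491-52221854 on the minus strand, had 6.94, 5.83 and 7.32 CPM in K634E, against 15.0, 14.3 and 16.9 CPM in WT. The K634E values were far below WT and near het at 8.52 ± 0.669 CPM. Its log2 fold change was -1.21 (SE 0.11, adjusted p = 2.25e-08). Hoxb9, a posterior HoxB gene, had 21.1, 20.3 and 20.9 CPM in K634E, against 37.8, 39.4 and 35.6 CPM in WT. The groups were apart by more than the whole spread of either, at -0.85 (SE 0.08, adjusted p = 6.82e-08). Hoxb8, Hoxb7 and Hoxb6 stood at -0.62, -0.62 and -0.58, and all 3 kept their call without replicate 3. Hoxa11 and Hoxa9 were called only with replicate 3 (adjusted p = 0.0650 and 0.0559 without), and Hoxa9 was not called with the GC correction (adjusted p = 0.0796).

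Hoxb1, an early direct retinoic acid target of the hindbrain, had 169, 148 and 147 CPM in K634E, against 122, 126 and 126 CPM in WT. All 3 K634E libraries were higher, at 0.31 (SE 0.08, adjusted p = 0.00966), but the call was lost without K634E replicate 1 (adjusted p = 0.0603). Hoxb5 stood at 0.23 (adjusted p = 0.0164), and its call was lost without WT replicate 1 or 2 (adjusted p up to 0.0778). Against het, 13 Hox genes were higher and 2 lower in K634E (18.0% and 19.2% of all genes). Hoxa7 stood at -0.36, Hoxb9 at -0.40, Hoxb8 at 0.29 and Hoxb5 at 0.49 there. Meis2, a Hox cofactor, had 134, 129.8 and 136 CPM in K634E, against 87.0, 94.0 and 92.5 CPM in WT. The libraries of each line were close together, and the log2 fold change was 0.55 (SE 0.06, adjusted p = 2.37e-07).

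Of 31 retinoic acid metabolism and response genes, 5 rose and 8 fell (7.38% and 7.65% of all genes). Without replicate 3 it was 5 and 7, and the median was -0.13. Stra8, a retinoic acid-induced gene of meiotic entry, had 68.8, 77.7 and 70.0 CPM in K634E, against 116, 122 and 106 CPM in WT. Every K634E library was lower, at -0.67 (SE 0.07, adjusted p = 6.82e-08). Tgm2, a transglutaminase induced by retinoic acid, stood at -0.93 and Stra6, the retinol transporter, at -0.59. The retinoid-binding proteins moved apart, Crabp1 at -1.13 and Crabp2 at 0.77. Crabp2 was lowest in replicate 3, with 34.3, 32.1 and 20.6 CPM in K634E, against 16.7, 17.6 and 16.8 CPM in WT, and stood at 0.96 without it. Of the enzymes that clear retinoic acid, Cyp26b1 stood at -0.52 (adjusted p = 0.00152), while Cyp26a1 had 389, 389.9 and 309 CPM in K634E and 386, 413 and 339 CPM in WT. The Cyp26a1 groups overlapped (-0.07, adjusted p = 0.624).

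Genes of naive pluripotency were lower in K634E than in WT after ATRA. Of 24 tested, 11 fell and none rose (7.65% and 7.38% of all genes), with 7 and 0 without replicate 3 and a median of -0.20. At an unadjusted p under 0.05, 1 was higher, DESeq2 called 11 lower and none higher, and the GC correction gave 11 lower and 2 higher. Tfcp2l1, a factor of the naive network whose promoter window is printed above, is at chr1:118627945-118685168. It had 20.7, 21.3 and 22.5 CPM in K634E, against 43.1, 43.5 and 40.5 CPM in WT. The K634E libraries were close to each other, below WT and further below het at 62.3 ± 3.10 CPM. This was a log2 fold change of -0.98 (SE 0.08, adjusted p = 1.57e-09). Esrrb, an orphan nuclear receptor of the same network, had 28.0, 28.4 and 25.3 CPM in K634E, against 49.1, 51.1 and 49.2 CPM in WT. It was lower in all 3 libraries, at -0.87 (SE 0.07, adjusted p = 4.14e-09). Klf5 stood at -0.74, Tbx3 at -0.57, Fbxo15 at -0.47, Zfp42 (Rex1) at -0.38 and Tcl1 at -0.88, all called in both settings.

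Utf1, Dppa5a, Stat3 and Dppa4 were called only with replicate 3, and Utf1 and Stat3 were not called with the GC correction (adjusted p = 0.180 and 0.0784). Nanog had 39.7, 37.9 and 35.6 CPM in K634E and 43.1, 41.8 and 46.0 CPM in WT, and the difference of -0.21 did not pass the test (adjusted p = 0.092). Pou5f1 (Oct4) had 342, 347 and 269 CPM in K634E, against 367, 383 and 379 CPM in WT. Its difference of -0.24 (adjusted p = 0.0474) rested largely on replicate 3: it was -0.12 (adjusted p = 0.372) without it. The call was also lost with the GC correction (adjusted p = 0.101) and without any single WT library. Sox2, which neural progenitors share with stem cells, had 158, 158 and 134 CPM in K634E, against 118, 111 and 121 CPM in WT, and rose by 0.36 (adjusted p = 0.00232). Lin28b, an inhibitor of let-7 maturation, rose by 0.67 (adjusted p = 3.15e-05), and by 0.52 without replicate 3, the highest library.

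**Figure D3:**
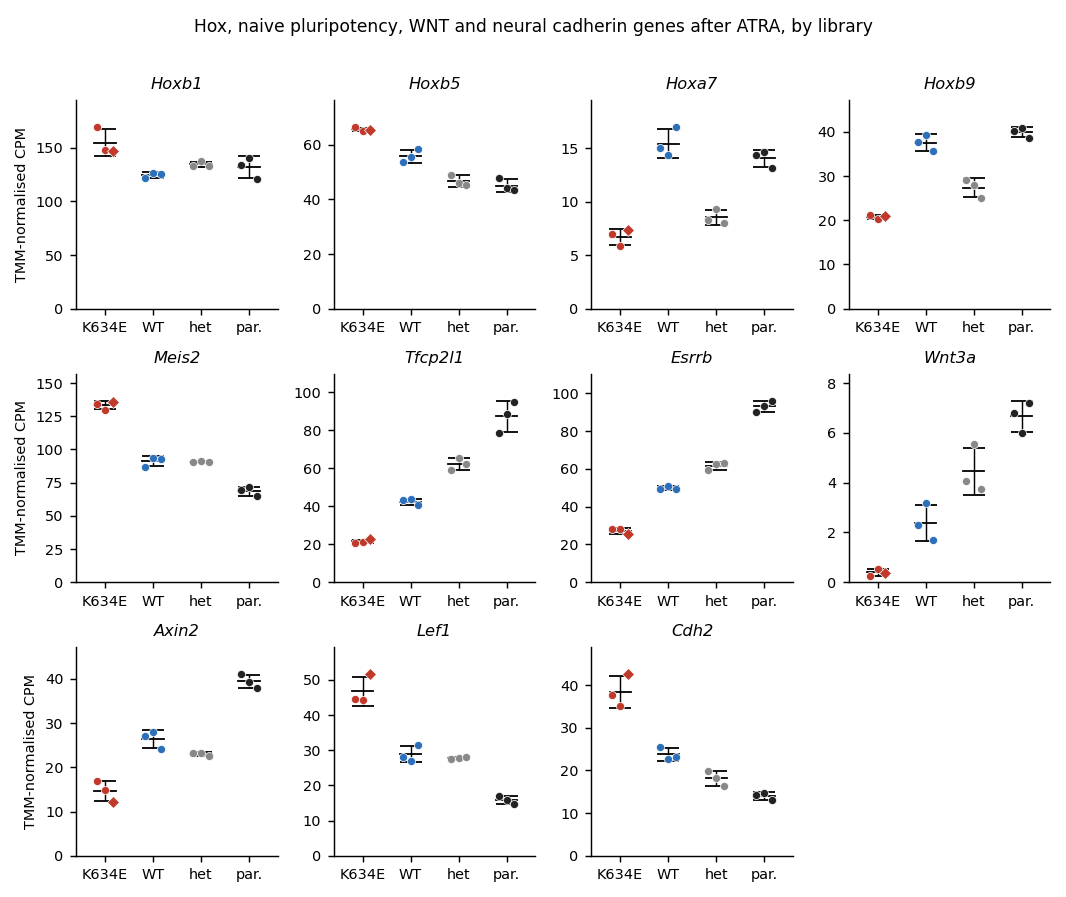
Level in CPM of 11 genes after ATRA in K634E, WT, het and parental cells, with points for libraries, a diamond for K634E replicate 3 and bars for the mean ± SD (n = 3). Hoxb1, Hoxb5, Meis2, Lef1 and Cdh2 lie higher in K634E than in WT, and Hoxa7, Hoxb9, Tfcp2l1, Esrrb, Wnt3a and Axin2 lie lower.

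Formative, neural and mesenchymal genes moved in both directions. Of 20 formative and primed epiblast genes, 5 rose and 2 fell (7.38% and 7.65% of all genes), or 3 and 2 without replicate 3. Lefty2, a Nodal inhibitor, had 201, 195 and 192 CPM in K634E, against 330.2, 322 and 316 CPM in WT, with the groups far apart (-0.72, SE 0.07, adjusted p = 2.77e-08). Cldn6, a tight junction protein, stood at -1.09 (adjusted p = 8.96e-06), and Sox11 rose by 0.41. Fgf5, the usual marker of this state, stood at 0.69 (adjusted p = 0.0444), with 4.78, 2.49 and 5.75 CPM in K634E and 2.74, 2.15 and 3.09 CPM in WT. The Fgf5 groups overlapped, and the call was lost without replicate 3 (adjusted p = 0.347).

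Of 28 neuroectoderm genes, 5 rose and 3 fell (7.38% and 7.65% of all genes). It was 5 and 1 without replicate 3 and 10 and 1 with the GC correction, and the median was 0.12. Cdh2, the neural cadherin, had 37.6, 35.1 and 42.5 CPM in K634E, against 25.5, 22.7 and 23.2 CPM in WT. No libraries overlapped, and replicate 3 was the highest (0.69, SE 0.09, adjusted p = 6.37e-06, or 0.62 without it). Ncam1, a neural adhesion molecule, rose by 0.98, Nefl, a neurofilament, by 0.61, and Pax6, an eye and neural tube regulator, by 0.30. The filament gene Ina fell by 0.30 (adjusted p = 0.000694, or 0.123 with the GC correction).

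Among 17 genes of the epithelial to mesenchymal transition, 4 rose and 5 fell, or 4 and 3 without replicate 3. Zeb2, a repressor of epithelial genes whose window is printed above, is at chr2:44983632-45117395 on the minus strand. It had 27.6, 26.3 and 30.9 CPM in K634E, against 13.2, 15.9 and 16.2 CPM in WT. Every K634E library was well above every WT library (0.90, SE 0.09, adjusted p = 1.58e-07). Zeb1, its paralog, rose by 0.41, and the epithelial genes Cdh1 and Cldn4 fell by 0.26 and 0.91. Cldn7 and Cldn3 were called only with replicate 3.

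WNT pathway genes held the largest decrease called in any list. Of 30 tested, 4 rose and 7 fell (7.38% and 7.65% of all genes), or 3 and 6 without replicate 3. The median was -0.10. With the GC correction 6 were higher and 6 lower, and the median was 0.09. The ligand Wnt3a, at chr11:59248033-59290752 on the minus strand, had 0.255, 0.548 and 0.375 CPM in K634E, against 2.30, 3.16 and 1.71 CPM in WT. All K634E libraries were under 1 CPM and all WT libraries above it, and het stood higher still at 4.46 ± 0.947 CPM. The log2 fold change was -2.56 (SE 0.34, adjusted p = 7.98e-06). The levels in A677T, R679C and K563E were 0.502 ± 0.193, 0.274 ± 0.143 and 0.282 ± 0.180 CPM, which did not differ from K634E beyond their spread. Axin2, a feedback target of beta-catenin, had 16.8, 14.8 and 12.3 CPM in K634E, against 27.04, 27.9 and 24.0 CPM in WT. It was lower in every library, at -0.85 (SE 0.11, adjusted p = 6.5e-06). The inhibitor Dkk1 stood at -1.35 and the ligand Wnt7b at -1.68. The receptor Ror1 rose by 1.004, and the nuclear effectors Tcf7l2 and Lef1 by 0.60 and 0.70. Sfrp1, a secreted antagonist, fell by 0.37.

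Of 18 ERK feedback genes, 1 rose and 6 fell, with the same counts without replicate 3 and a median of -0.13. With the GC correction 4 were higher and 5 lower, and the median was -0.02. Spry4, a feedback inhibitor of FGF and ERK signalling, had 107, 114 and 119 CPM in K634E, against 156, 163 and 164 CPM in WT. The groups were far apart (-0.51, SE 0.07, adjusted p = 7.2e-06). The phosphatases Dusp4 and Dusp5 stood at -0.62 and -0.21, Phlda1 at -0.51, and the ETS factors Etv4 and Etv5 at -0.46 and -0.29. Dusp5 and Phlda1 were not called with the GC correction (adjusted p = 0.780 and 0.0872), nor Dusp5 without WT replicate 2 (0.0732). Spred1, also an inhibitor of the pathway, rose by 0.42 (adjusted p = 0.00226). In the BMP and TGF-beta list of 25, 3 rose and 3 fell (7.38% and 7.65% of all genes), or 4 and 1 without replicate 3. Id4, an inhibitor of basic helix-loop-helix factors, is at chr13:48261228-48266026, behind the CpG-rich window printed above. It had 3.12, 2.89 and 3.63 CPM in K634E, against 0.896, 1.01 and 0.923 CPM in WT, with no overlap (1.75, SE 0.27, adjusted p = 4.68e-05). Id2, of the same family, rose by 0.83 (adjusted p = 4.11e-07).

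The next lists hold genes of growth and the skeleton, chosen because Weaver syndrome is an overgrowth disorder. Of 23 skeletal growth genes, 3 rose and 2 fell (7.38% and 7.65% of all genes), or 3 and 0 without replicate 3. The median of the list was below 0, at -0.15, or -0.11 without replicate 3. The members named next are the higher ones. Col2a1, the main collagen of cartilage, had 39.2, 35.5 and 33.1 CPM in K634E, against 18.9, 21.1 and 16.9 CPM in WT, with no overlap (0.92, SE 0.12, adjusted p = 3.77e-06). Ptch1 and Gli3, of the Hedgehog pathway, rose by 0.59 and 0.41. Of 20 overgrowth syndrome genes, 3 rose and 1 fell, or 1 and 1 without replicate 3. Cdkn1c, the imprinted CDK inhibitor of Beckwith-Wiedemann syndrome, had 41.1, 37.8 and 45.6 CPM in K634E, against 71.3, 64.7 and 74.8 CPM in WT, and fell by 0.76 (adjusted p = 1.2e-05). Of 19 growth factor and IGF genes, 4 rose and 2 fell, or 2 and 2 without replicate 3. Irs2 and Hmga2 rose by 0.48 and 0.51, and Igfbp3 and Igf2bp2 fell by 0.42 and 0.36, all also without replicate 3.

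Of 43 imprinted genes, 5 rose and 8 fell, or 2 and 6 without replicate 3. Zfp57, which guards imprinted methylation, had 117, 114 and 123 CPM in K634E, against 196, 216 and 224 CPM in WT, a clear separation (-0.85, SE 0.07, adjusted p = 4.14e-09). Sfmbt2, a paternally expressed Polycomb group gene, stood at -1.15, and Mest at 0.46. In the list of 48 developmental Polycomb targets, 4 rose and 12 fell, or 4 and 9 without replicate 3, with a median of -0.11. Over all genes 7.38% rose and 7.65% fell, or 3.26% and 3.50% without replicate 3. Against het, 17 members were higher and 7 lower, where 18.0% and 19.2% of all genes were. Besides the endoderm factors above, lower members called in both settings included Cdx2 (-0.88), Cdx1 (-0.63) and Tbx3, and the higher ones were Pax6, Msx1 (0.30), Meis2 and Olig2 (0.56). Msx1 was not called without WT replicate 1 or 2 or K634E replicate 1 (adjusted p up to 0.103).

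**Figure D4:**
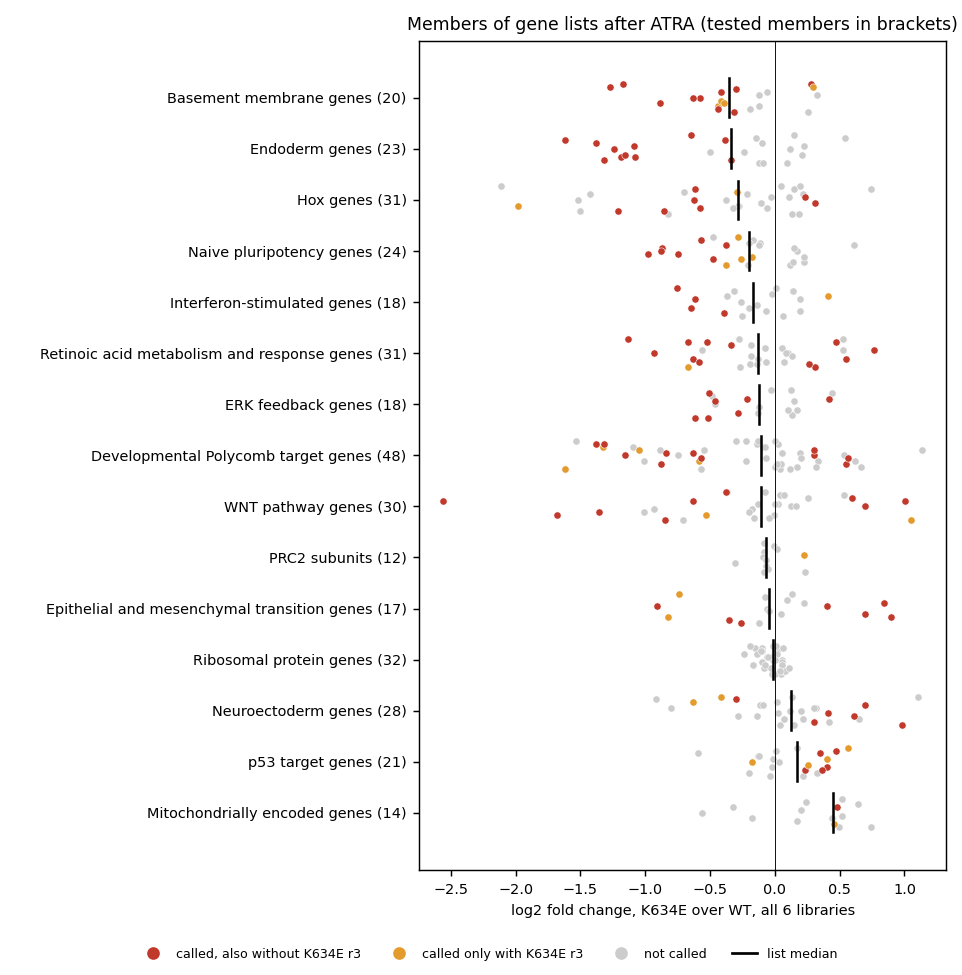
Log2 fold change, K634E over WT after ATRA, of every tested member of 15 gene lists, with a black tick for the list's median. Red points are called with and without K634E replicate 3, orange points only with it and grey points are not called, and the endoderm, basement membrane and naive pluripotency lists hold mostly points below 0.

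Mitochondrially encoded genes had a median of 0.45 over 14 genes, and of -0.04 without replicate 3. mt-Co1 had 8873, 8364 and 12190.0 CPM in K634E, against 6944, 6435 and 7718 CPM in WT, with replicate 3 the highest (0.48, adjusted p = 0.00404, or 0.30 and adjusted p = 0.0336 without it). Of 21 p53 target genes 8 rose and 1 fell, or 6 and 0 without replicate 3. Plk2, Zmat3, Sesn1 and Eda2r rose by 0.40, 0.35, 0.36 and 0.47, while Trp53 itself stood at -0.18 and was called neither without replicate 3 nor with the GC correction (adjusted p = 0.142 and 0.307). Of 30 cell cycle genes 4 rose and 1 fell, with the same counts without replicate 3, and among the higher ones Ccnd1, Ccnd2 and Cdkn2a rose by 0.39, 0.43 and 0.66. Of 18 interferon-stimulated genes 1 rose and 4 fell, or 0 and 4 without replicate 3, and 1 was higher and 6 lower with the GC correction. The 4 that fell in both settings were the class I genes H2-D1 (-0.75) and H2-K1 (-0.62), the RNA sensor Ddx58 (-0.64) and Ifitm3 (-0.40). Reads of the near-identical class I genes may be split between them. Of 30 integrated stress response and serine synthesis genes, 5 fell and none rose, 1 of them without replicate 3 (Cth, -0.52). Against het 29 were lower, where 19.2% of all genes were. At an unadjusted p under 0.05 none of that list was higher, and none by DESeq2, while 1 was higher with the GC correction.

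Of 25 mesoderm, blood and endothelium genes 3 rose and 4 fell, or 1 and 3 without replicate 3. Kdr, an endothelial receptor, stood at 0.54 (adjusted p = 0.0144, or 0.0800 without K634E replicate 3 and up to 0.107 without WT replicate 2 or K634E replicate 1). Of 14 trophoblast genes 3 fell, with Tead4 at -1.05 and Cdx2 in both settings and Ascl2 (-0.96) with all libraries only, and none rose by either tool or at an unadjusted p under 0.05. The Ascl2 call was lost without K634E replicate 3 (adjusted p = 0.0625), WT replicate 2 (0.0982) or K634E replicate 1 (0.0563), and with the GC correction (0.102). Of 29 germline genes 3 rose and 4 fell, or 1 and 2 without replicate 3, with Kit at 0.57 and Stra8 as above. Hypoxia and glycolysis genes gave 4 higher and 4 lower of 31, or 3 and 1 without replicate 3. Sterol synthesis genes gave 3 lower of 24, of which Ebp (-0.71) kept its call without replicate 3. Nsd2, a histone H3K36 methyltransferase, was the only one of 21 H3K27 demethylase and MLL-type genes called in both settings, at 0.30. Mbd1 rose by 0.39 among 12 DNA methylation genes. Of 18 genes of the 2-cell-like state 1 was called, Pramef25, and every leave-out of a single library ended that call. No clustered protocadherin gene of 12 and no ribosomal protein gene of 32 passed the edgeR test or DESeq2. At an unadjusted p under 0.05 these were 2 and 0 genes, and with the GC correction 1 gene of each list was higher.

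Among genes that met the naming rule given with the processing, which also left out predicted gene models, the largest single changes were decreases of low-abundance genes. Sh3rf2, a ubiquitin ligase of the POSH family, had 0.255, 0.498 and 0.188 CPM in K634E, against 2.35, 2.56 and 2.81 CPM in WT, with no overlap (-2.96, SE 0.32, adjusted p = 3.37e-07). Wnt3a, Wnt7b and Foxa2, given above, were also among the 12 largest, with Tcf23 (-1.97), Slc25a34 (-1.89), Unc5a, a netrin receptor (-1.85), Bcl2l14 (-1.77), Trim38 (-1.77), Pla1a (-1.69), Emp1 (-1.60) and the amino acid transporter Slc38a5 (-1.59). The largest increases were Gbp2, an interferon-inducible GTPase (1.98), Mir670hg, a non-coding host transcript (1.93), the integrin subunit Itgb8 (1.90), Id4, Cyp2b23 (1.74) and Dach1 (1.54). They were followed by Zfp934 (1.52), Ccnb3 (1.496), Prrg1 (1.48), the forkhead gene Foxp2 (1.46), Zfp988 (1.45) and Themis (1.44). Gbp2, Cyp2b23, Zfp934 and Zfp988 belong to families of near copies among which reads could be split. Zfp988 was carried in part by replicate 3, with 50.0, 47.2 and 81.0 CPM in K634E, against 22.0, 19.6 and 23.7 CPM in WT, and stood at 1.16 without it. Replicate 3 was also the highest library for Dach1, Prrg1 and Themis, which stood at 1.24, 1.11 and 1.08 without it.

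The most abundant genes named were mt-Co1, given above, and those that follow. Txnrd1, a thioredoxin reductase, had 1625, 1684 and 1662 CPM in K634E, against 1333, 1319 and 1307 CPM in WT, a tight separation (0.33, adjusted p = 1.7e-05). Actg1, cytoplasmic actin, rose by 0.45 and Itgb1 by 0.31. Epha2, an ephrin receptor of early epiblast, had 603, 625 and 489 CPM in K634E, against 828, 874 and 789 CPM in WT. It was lower in all libraries and lowest in replicate 3 (-0.54, adjusted p = 1.7e-05, or -0.43 without it). Acly, which makes cytosolic acetyl-CoA, fell by 0.29. The largest changes called only with replicate 3 were Cdh7 (1.42), Slco1a5 (1.18) and Nfia (1.18) among the higher and Pzp (-1.44), Nkx2-5 (-1.32) and Efna3 (-1.25) among the lower. Their adjusted p values without that library were 0.0742, 0.083, 0.233, 0.0738, 0.0902 and 0.111. Cdh7, Nfia, Pzp, Nkx2-5 and Efna3 also lost the call without at least 1 further library, and Cdh7 and Nfia with the GC correction (adjusted p = 0.0729 and 0.102).

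Against het, 6336 of 17030 genes differed (37.2%), 3073 higher (18.0%) and 3263 lower (19.2%) in K634E. Without replicate 3 the count was 4470 (25.6%). The endothelial genes Fli1 and Kdr were among the largest increases. Kdr averaged 27.9 ± 4.81 CPM in K634E and 3.64 ± 0.842 CPM in het (log2 fold change 2.92, SE 0.17, edgeR adjusted p = 4.16e-12). Fli1 averaged 7.82 ± 2.41 CPM in K634E and 0.904 ± 0.168 CPM in het (3.06). Pcdh12 (3.25), Chl1 (2.99) and Slitrk2 (2.86) completed the 5 largest. The largest decreases were Ly6g5c (-3.59), Fut1 (-3.46), Wnt3a (-3.44), A4galt (-3.08) and Chac1 (-2.82). Chac1, a stress-induced glutathione-degrading enzyme, averaged 11.1 ± 2.87 CPM in K634E and 79.0 ± 8.11 CPM in het. In WT, Kdr averaged 19.2 ± 2.79 CPM, Fli1 4.87 ± 0.485 CPM and Chac1 8.55 ± 0.315 CPM. Each of these WT means lay on the same side of het as K634E, and for Chac1 the WT mean lay below that of K634E. Het carries no added EZH2, so the comparison joins the variant with the added protein.

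Against the mean of A677T, R679C and K563E, 1479 of 17030 genes differed (8.68%), 752 higher (4.42%) and 727 lower (4.27%) in K634E. Without K634E replicate 3 the count was 410 (2.35%), of which 283 were higher (1.62%) and 127 lower (0.728%). The largest increases were Pcdhga4 (1.39), Gbp2 (1.29), Stc1 (1.26), Aldh1l2 (1.22) and Thbs2 (1.17). Gbp2 averaged 1.12 ± 0.325 CPM in K634E, 0.473 ± 0.135 CPM in A677T, 0.494 ± 0.155 CPM in R679C and 0.417 ± 0.137 CPM in K563E. K634E had the highest mean of these 4 lines, but the parental line averaged 1.27 ± 0.272 CPM and A733T 1.14 ± 0.243 CPM. The Stc1 call was lost without K634E replicate 2 (adjusted p = 0.0517). Among the decreases, Tbx4, a limb and lung T-box factor, stood at -1.07, Armc7 at -0.69, and Plxdc1, Crygc and Inka2 at -0.66 each. Aldh1l2, a mitochondrial folate enzyme, averaged 3.87 ± 0.808 CPM in K634E, 1.52 ± 0.244 CPM in A677T, 1.82 ± 0.574 CPM in R679C and 1.69 ± 0.385 CPM in K563E. WT was close to K634E, at 3.71 ± 0.369 CPM. Higher still were A733T at 9.91 ± 0.0959 CPM, het at 12.5 ± 1.08 CPM and the parental line at 12.8 ± 1.91 CPM. Thbs2 averaged 2.68 ± 0.484 CPM in K634E and 1.65 ± 0.414 CPM in WT. Its means in het, A733T and the parental line were 2.56, 2.56 and 2.23 CPM.

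For genes described above, K634E and the other Weaver syndrome lines often stood close. Gata6 differed from their mean by -0.15 (adjusted p = 0.122), Lama1 by -0.10 (adjusted p = 0.439) and Tfcp2l1 by -0.11 (adjusted p = 0.310), none past the threshold. Esrrb did differ, at -0.48 (adjusted p = 3.29e-05), and so did Zeb2 at 0.48 (adjusted p = 0.000295), Cdh2 at 0.29 (adjusted p = 0.0132, or 0.171 without K634E replicate 3) and Lefty2 at 0.48 (adjusted p = 3.55e-06). Esrrb averaged 27.2 ± 1.71 CPM in K634E, 65.1 ± 2.17 CPM in A677T, 33.0 ± 3.71 CPM in R679C and 25.4 ± 1.10 CPM in K563E, so that A677T alone stood far above the others. Zeb2 averaged 28.3 ± 2.37 CPM in K634E, 16.2 ± 0.312 CPM in A677T, 19.9 ± 1.30 CPM in R679C and 25.9 ± 0.411 CPM in K563E.

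The last comparison asked whether the difference between K634E and WT after ATRA was the same as in undifferentiated cells. The difference of differences was called for 224 of 17683 genes (1.27%), 118 with a higher value after ATRA (0.667%) and 106 with a lower one (0.599%). Without K634E replicate 3 it was called for 345 genes (1.91%), 219 higher (1.21%) and 126 lower (0.696%). Here levels are scaled over all 48 libraries. Tfcp2l1 averaged 20.8 ± 0.620 CPM in K634E and 41.2 ± 1.70 CPM in WT after ATRA, and 983 ± 55.5 CPM in K634E and 1235 ± 32.7 CPM in WT before it. The gap was thus wider on the log2 scale after ATRA, by -0.66 (SE 0.09, adjusted p = 1.5e-05). Spry4 averaged 109 ± 4.77 CPM in K634E and 157 ± 4.34 CPM in WT after ATRA, and 107 ± 6.06 CPM in K634E and 97.3 ± 2.46 CPM in WT in mESC. K634E lay below WT after the treatment and above it in mESC, and the difference of differences was -0.65 (SE 0.09, adjusted p = 1.73e-05). For Meis2 the fold change shrank: it averaged 129 ± 2.12 CPM in K634E and 88.7 ± 3.57 CPM in WT after ATRA, and 4.15 ± 0.920 CPM in K634E and 0.815 ± 0.0432 CPM in WT before it (-1.79, SE 0.24, adjusted p = 5.88e-06).

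**Figure D5:**
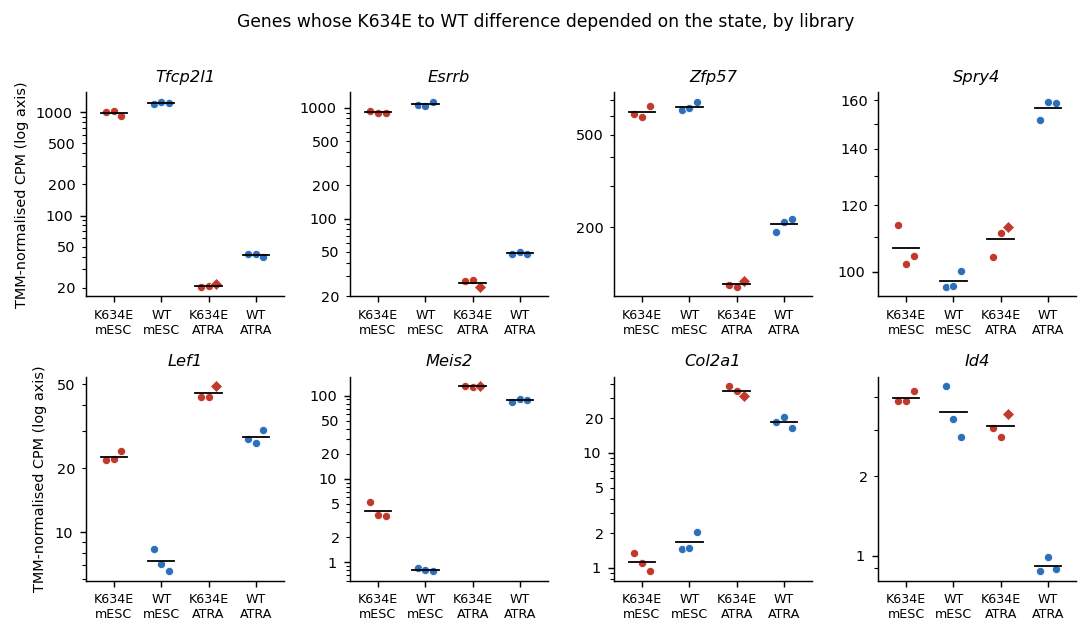
Level in CPM on a log axis of 8 genes in mESC and ATRA, K634E left of WT in each state, with points for libraries, a diamond for ATRA K634E replicate 3 and a line for the mean (n = 3). Tfcp2l1, Esrrb and Zfp57 show a wider gap after ATRA, Lef1 and Meis2 a narrower one, and Spry4, Col2a1 and Id4 a gap that changes in sign or size.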

How the data were processed

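Polyadenylated RNA of mouse embryonic stem cells was sequenced, and the authors deposited raw read counts per gene, whole numbers with no normalization. The tools named, per the submitters' processing notes, were featureCounts 1.6.4, DESeq2 1.38.3, STAR 2.7.3a and cutadapt 3.2, with mm10. No source used here gives their order, the annotation release or the strand setting, so reads of overlapping and antisense genes cannot be told apart. Groups came from the labels. 6 columns matched no label and were not used, so the Y728 line was not analysed here.

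Counts of the 24 ATRA libraries were filtered with filterByExpr, scaled by TMM and tested with edgeR 4.0.16 (R 4.3.3, robust quasi-likelihood, 1 mean per line, Benjamini-Hochberg over all genes tested, adjusted p under 0.05). All lines shared the estimate of spread. The difference of differences between states was fitted on 48 libraries. The SE is the log2 fold change divided by the square root of its F statistic. Levels are counts per 1000000 of the TMM-scaled library and are compared between libraries, not between genes. The GC correction removed from each library a lowess trend (span 0.3) of its deviations on gene GC content. Alternatives were RLE scaling, no filter, DESeq2 1.42.0, limma 3.58.1 voom with library weights, a replicate block, the compared groups alone, and each library left out in turn. In simulated counts for 16645 genes, the test recovered 71% of 1.5-fold and 95% of 2-fold changes and called 7 unchanged genes. Each unchanged gene had the same mean level in all lines, and the changed genes had a mean above 1 CPM. The simulation held no GC trend and no library that stood apart, so these values need not hold for the real libraries.

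GENCODE M21 paired 55141 of the 55401 identifiers with names and GC content, and promoter windows came from RefSeq (GRCm38.p6). Totals of 15787148 to 24677036 counts per library in K634E and WT set the precision of low levels. Named genes were the 12 largest and the 4 most abundant changes in each direction among genes called with and without K634E replicate 3, with the same sign after the GC correction, at least 1 CPM and no overlap between groups, and up to 4 called members per list by p. Some genes that met this rule are not reported here. Other called members were named after their values were seen. The members, lists and tests were chosen with earlier results of these data known.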

Additional observations from a re-analysis of the deposited data

Results flagged for a closer look

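The difference between K634E and WT depended on the state for 224 genes by the test of the difference of differences (edgeR, adjusted p under 0.05). A selection of them, from the gene lists and the largest changes, is given here, and further called list members are not named. Each value is the log2 fold change of K634E over WT after ATRA minus that in mESC. Levels are means ± SD over 3 libraries, scaled over all 48.

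Of 24 naive pluripotency genes 4 had a lower difference of differences, and of 20 formative and primed epiblast genes 4 had a lower and 1 a higher one, where 0.599% of all genes were lower and 0.667% higher. Tfcp2l1 (-0.66), Esrrb (-0.63), Klf5 (-0.55) and Lefty2 (-0.59) had a lower mean in K634E in both states, by more after ATRA. Esrrb averaged 26.4 ± 2.04 CPM in K634E and 48.5 ± 1.19 CPM in WT after ATRA, and 910 ± 16.0 CPM in K634E and 1081 ± 48.3 CPM in WT in mESC. Zfp57, the guardian of imprinted methylation, stood at -0.77, with 114 ± 3.23 CPM in K634E and 206 ± 13.6 CPM in WT after ATRA, and 623 ± 33.3 CPM in K634E and 659 ± 29.4 CPM in WT in mESC. Axin2 stood at -0.73, with a mean lower in K634E in both states. Spry4 (-0.65), Epha2 (-0.60), Ddx58 (-0.84), Hoxb9 (-1.0), Rab27a (-1.30) and Bmp4 (-0.81) had a lower mean in K634E after ATRA and a higher one in mESC, where the difference was not tested on its own. Bmp4 was not called without ATRA K634E replicate 3 (adjusted p = 0.0526).

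For Lef1 (-0.94), Ccnd2 (-0.82), Meis2 (-1.79) and Hs6st2 (-1.75) the K634E mean was higher in both states, by less after ATRA. Lef1 averaged 45.2 ± 3.31 CPM in K634E and 28.1 ± 2.17 CPM in WT after ATRA, and 22.7 ± 1.21 CPM in K634E and 7.31 ± 0.939 CPM in WT in mESC. Robo4 (-1.22) and Platr22 (-1.34) had a lower mean in K634E after ATRA and a higher one in mESC.

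Col2a1 stood at 1.46, with 34.8 ± 3.39 CPM in K634E and 18.5 ± 2.12 CPM in WT after ATRA, and 1.12 ± 0.207 CPM in K634E and 1.66 ± 0.332 CPM in WT in mESC. For Id4 (1.56) and Kit (0.53) the K634E mean was higher in both states, by more after ATRA. For Rassf4 (2.96) it was higher after ATRA and lower in mESC. Rassf4 averaged 9.90 ± 0.964 CPM in K634E and 4.05 ± 0.508 CPM in WT after ATRA, and 0.419 ± 0.132 CPM in K634E and 1.39 ± 0.295 CPM in WT in mESC. H2-K1 stood at 0.71, with a lower mean in K634E in both states.

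Zbp1 (4.42), Aatk (2.76), Batf3 (2.53) and Irs4 (2.37) rest on few counts. Zbp1 had 10 counts over the K634E libraries and 1 over the WT libraries after ATRA, so its value depends on the prior count. Aatk and Batf3 had 5 counts each over the mESC K634E libraries. The calls of Zbp1, Aatk, Batf3, Irs4, Hs6st2, Hoxb9 and H2-K1 were lost without at least 1 of the 12 libraries compared, with highest adjusted p of 0.172, 0.127, 0.0826, 0.0803, 0.0861, 0.0889 and 0.109. For Hoxb9 these were replicate 1 of mESC WT or K634E, and for Hs6st2 mESC WT replicate 1 or mESC K634E replicate 2.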

How the results depend on the processing

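The count of 2558 genes between K634E and WT was 3910 with the replicate block (1933 higher, 1977 lower), 666 with only the libraries of K634E and WT (278 higher, 388 lower) and 1683 with the GC correction and without K634E replicate 3 (798 higher). Leaving out single libraries gave 1180 to 3239 genes, 569 to 1606 higher and 611 to 1633 lower, with 1180 without K634E replicate 3, 1247 without WT replicate 2 and 1677 without WT replicate 1. Against the other variants the count of 1479 was 2965 with the block, 498 with only the groups compared, 942 with the GC correction and without K634E replicate 3, and 410 to 2107 with single libraries left out. The 224 genes of the difference between states were 431 with the GC correction, 516 with that and the block, 474 with voom, 126 with only the groups compared, 460 with the GC correction and without K634E replicate 3, and 160 to 345 with single libraries left out. Against het every alternative stayed within 1.5 times of 6336 (4470 to 6546 with single libraries left out). The causes were not tested, except that the restricted fits use fewer libraries.

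The labels do not say that replicate numbers mark a shared culture. Correlations of same-numbered K634E and WT libraries were 0.063, 0.190 and 0.304. K634E replicates 2 and 3 correlated best with the WT library of their own number, and with the others at -0.249 to 0.075. K634E replicate 1 was nearly tied between WT replicate 1 (0.063) and WT replicate 2 (0.073). Same-numbered K634E and het libraries correlated at 0.042, 0.014 and 0.006. The numbers were not taken to pair the libraries because no label says so, and the replicate block is given as an alternative.

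Among 144 results for named genes, the calls lost were 26 without K634E replicate 3, 21 without WT replicate 2, 21 with the GC correction and without K634E replicate 3, 13 with the GC correction, 42 with only the groups compared and 8 with voom, and DESeq2 and RLE lost 1 each. Signs changed for 4 genes that were not called with all libraries. Rplp0 stood at 0.11 with the GC correction, at 0.11 with that and the block, and at 0.050 with the correction and without K634E replicate 3. With single libraries left out, Suz12 ranged from -0.29 (without K634E replicate 3) to 0.020 (without K634E replicate 2), Pdgfrb from -0.44 (without WT replicate 3) to 0.067 (without WT replicate 2) and Pcdhga1 from -0.27 (without WT replicate 1) to 0.087 (without WT replicate 2). In simulated counts for K634E and WT, which held no GC trend and no deviant library, 71% of 1.5-fold changes were recovered. Recovery by level or depth was not measured.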
